A study of Mus musculus with 6 samples.

Results

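The MYC and MAX network is a family of 10 genes for DNA-binding proteins of the basic helix-loop-helix leucine zipper class: Myc, Mycn, Mycl, Max, Mxd1, Mxd3, Mxd4, Mxi1, Mnt and Mlx. They were chosen by gene symbol, and each symbol matched 1 of the 46095 rows of the expression table. They were chosen with results of the comparison below already known, so the differences of the members themselves are given as descriptions without a test. The gene lists and markers below were also chosen with earlier results of these data known, so counts over each list are descriptions. Of the 10, 9 were above 0 in at least 1 library and 8 had a mean of at least 1 FPKM (fragments scaled by transcript length and library depth), the level needed to enter the fit over 11464 genes. The cells were 3T3-L1 adipocytes, which derive from mouse embryo fibroblasts and turn fat-storing under hormonal induction. One group of 3 libraries came from cells given 0.125 μg/mL of flavonoids from the plant Smilax glabra, and the other group of 3 came from untreated cells. Both groups carry the label of day 8 after differentiation, and the line, the medium and the induction of differentiation were not varied. The labels do not give the length of exposure, name no vehicle, and do not tie libraries to separate cultures, so p-values measure a spread between libraries that may be technical.

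MYC proteins bind DNA as pairs with MAX and raise transcription of genes for ribosome assembly, nucleotide synthesis and growth. MXD1, MXD3, MXD4, MXI1 and MNT also pair with MAX, bind the same sites and recruit SIN3 and histone deacetylase complexes, so they oppose MYC. MLX is the MAX-like partner of the glucose-sensing Mondo proteins and also pairs with some MXD proteins and with MNT. In fat cell precursors Myc falls as differentiation proceeds, and forced MYC blocks differentiation in 3T3-L1 cells. The core site for all of these pairs is the E-box CACGTG, which reads the same on both strands.

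The E-box itself was present at the start of several network genes. In promoter windows from 250 bases before to 50 bases after each RefSeq start (GRCm38.p6), CACGTG was found in 4 of the 9 members with an entry, which is 44.4%. Over all 27025 genes of the promoter table it was found in 2187, or 8.09%, and among 55 listed MYC-activated targets with an entry in 13, or 23.6%. The promoter table also holds genes these cells do not express. A share over the expressed genes alone is incomplete, because 7986 of the 11464 genes tested had an entry, under the 80% set as a limit. Among these 7986 genes the motif was found in 986, or 12.3%. The same holds for the activated targets called higher below, of which 17 of 23 had an entry and 2 of these the motif. Of the 40 activated targets not called, 36 had an entry and 10 of these the motif. The members with the motif were Max, with the motif across its start, Mlx, centred 37 bases before its start, Mnt, 120 bases before, and Mxd4, 216 bases before. The windows of Mycn, Mycl, Mxd1, Mxd3 and the 3 starts of Mxi1 held no CACGTG. The sequences of these 4 are shown because the E-box is the site the family's own proteins bind. Nop2, one of the 2 called activated targets with the motif, and Arrdc4, a Mondo target, are added as genes downstream of the network, with the motif centred 57 bases before the start of Nop2 and 190 bases before that of Arrdc4. The window of Txnip, another Mondo target named below, held no CACGTG. Each sequence is written 5′ to 3′ on the gene's strand with the E-box in capitals, and a match is not evidence of binding.
Max, chr12:76962246-76962286, minus strand: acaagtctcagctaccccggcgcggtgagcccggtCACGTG
Mlx, chr11:101087215-101087289, plus strand: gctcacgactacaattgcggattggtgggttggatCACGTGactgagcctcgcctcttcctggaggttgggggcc
Mnt, chr11:74830766-74830841, plus strand: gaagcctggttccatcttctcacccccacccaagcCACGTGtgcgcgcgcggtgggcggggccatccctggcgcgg
Mxd4, chr5:34187889-34187960, minus strand: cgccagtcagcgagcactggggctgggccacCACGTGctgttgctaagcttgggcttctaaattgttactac
Nop2, chr6:125131788-125131863, plus strand: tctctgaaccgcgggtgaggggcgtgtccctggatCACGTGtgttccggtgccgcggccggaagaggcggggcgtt
Arrdc4, chr7:68749391-68749466, minus strand: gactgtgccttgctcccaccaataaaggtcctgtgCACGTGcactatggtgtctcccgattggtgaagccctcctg

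**Figure D1:**
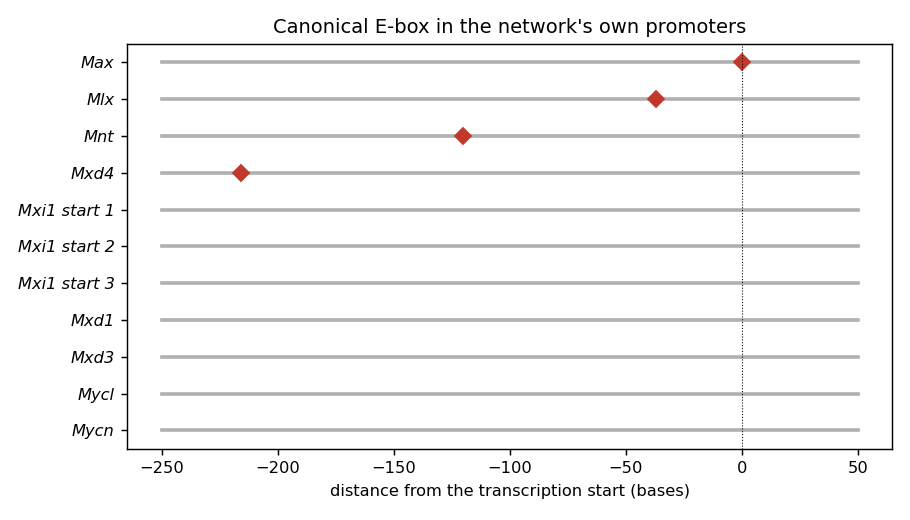
Position of CACGTG (diamonds, motif centre) in the promoter windows of the network genes, in bases from the start site. The motif lies in the windows of Max, Mlx, Mnt and Mxd4 and in no window of Mycn, Mycl, Mxd1, Mxd3 or Mxi1.

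The libraries held 24621562 to 26355863 fragments in flavonoid-treated cells and 21952064 to 25083868 in untreated cells, worked back from the steps of the FPKM values. Correlations of log2 values were 0.987 to 0.995 within flavonoids, 0.967 to 0.989 within untreated and 0.955 to 0.981 between groups. The labels call the cells adipocytes, but 11 of 20 listed adipocyte markers had a mean under 1 FPKM. Adipoq, for the fat cell hormone adiponectin, had 0.259, 0.735 and 0.197 FPKM with flavonoids and 0.294, 0.104 and 0.0321 FPKM in untreated cells. Fabp4, the fatty acid carrier of fat cells, was at 149 to 194 FPKM with flavonoids and 177 to 251 FPKM in untreated cells, and Pparg, the master regulator of the lineage, at 10.7 to 12.3 FPKM and 9.32 to 11.6 FPKM. Lpl, another marker of this list, had 306, 302 and 178 FPKM with flavonoids, against 144, 154 and 192 FPKM in untreated cells. The 9 tested adipocyte markers had a median log2 difference (flavonoids minus untreated) of 0.28, with 6 estimates above 0 and 3 below. The summed level of 14 preadipocyte and fibroblast markers was 4313 to 4849 FPKM with flavonoids and 5224 to 6014 FPKM in untreated cells, with no overlap. In bulk RNA, fewer cells of a type and less RNA per cell cannot be told apart, and the part of cell makeup in the results below was not tested. Summed macrophage, endothelial and skeletal muscle markers stayed at or below 5.75 FPKM with flavonoids and 8.16 FPKM in untreated cells.

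Myc, the family's main activator (15:61985391-61990374, plus strand, GRCm38), was higher in flavonoid-treated cells. It had 85.1, 81.1 and 76.7 FPKM in flavonoids replicates 1 to 3, against 33.9, 32.0 and 31.9 FPKM in untreated replicates 1 to 3. Every treated library stood far above every untreated one, and both groups were tight. The means were 80.9 ± 4.18 FPKM with flavonoids and 32.6 ± 1.15 FPKM in untreated cells (SD, n = 3 each), a 2.48-fold difference, or 1.29 with a standard error of 0.10 on the log2(FPKM + 1) scale. These values rest on 4561 to 5157 fragments per treated library and 1794 to 1932 per untreated library. The other MYC-type genes were nearly silent. Mycn, the form of embryonic neural tissue (12:12936093-12941914, minus strand), was listed at 0 in all 6 libraries. Mycl (4:122995652-123002485, plus strand) had 2, 1 and 1 fragments with flavonoids and 0, 1 and 1 in untreated cells, all below the 3 fragments taken as the limit of counting, so no fold is given.

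Max, the obligate partner (12:76937269-76962201, minus strand), had 73.4, 68.6 and 69.6 FPKM with flavonoids, against 64.3, 54.8 and 55.9 FPKM in untreated cells. The groups did not overlap, but the lowest treated and the highest untreated library were close. The means were 70.5 ± 2.54 FPKM with flavonoids and 58.3 ± 5.22 FPKM in untreated cells (SD, n = 3 each), a log2 difference of 0.27 with a standard error of 0.11. The ratio of Myc to Max FPKM was 1.16, 1.18 and 1.10 with flavonoids and 0.527, 0.583 and 0.570 in untreated cells. Myc transcripts per length therefore exceeded Max transcripts in every treated library and in none of the untreated ones.

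The MAX-binding antagonists did not move together. Mnt, the widely expressed MYC antagonist (11:74830920-74845725, plus strand), had 16.7, 16.4 and 18.6 FPKM with flavonoids, against 9.04, 9.61 and 12.7 FPKM in untreated cells. All treated libraries were above all untreated ones, and untreated replicate 3 stood highest in its group. The means were 17.2 ± 1.21 FPKM with flavonoids and 10.5 ± 1.96 FPKM in untreated cells (SD, n = 3 each), 1.65-fold, with a log2 difference of 0.68 and a standard error of 0.15. Mxi1, also known as MAD2 (19:53310518-53375810, plus strand), lay the other way. It had 8.97, 9.73 and 8.94 FPKM with flavonoids, against 15.0, 16.8 and 15.3 FPKM in untreated cells, again without overlap. The means were 9.21 ± 0.445 FPKM with flavonoids and 15.7 ± 0.945 FPKM in untreated cells (SD, n = 3 each), 1.70-fold higher in untreated, with a log2 difference of -0.71 and a standard error of 0.11. The ratio of Mnt to Mxi1 was 1.86, 1.69 and 2.08 with flavonoids and 0.603, 0.573 and 0.829 in untreated cells, so the more abundant of this pair was Mnt in each treated library and Mxi1 in each untreated one.

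The 3 MXD genes had overlapping groups. Mxd3, a form linked to dividing precursor cells (13:55325168-55329823, minus strand), had 4.52, 6.07 and 7.60 FPKM with flavonoids, against 12.1, 12.2 and 7.23 FPKM in untreated cells. Untreated replicate 3 lay below flavonoids replicate 3 and well below the other untreated libraries. The log2 difference was -0.69 with a standard error of 0.23, and -0.92 without untreated replicate 3. Mxd4 (5:34173883-34187720, minus strand), the most abundant antagonist transcript, had 44.4, 51.1 and 54.4 FPKM with flavonoids, against 43.3, 57.6 and 63.8 FPKM in untreated cells. Its spread within each group was larger than the difference of the means, with a log2 difference of -0.12 and a standard error of 0.16. Mxd1, first described as MAD1 in differentiating cells (6:86647042-86669161, minus strand), had 3.55, 3.21 and 3.95 FPKM with flavonoids and 3.68, 4.17 and 4.27 FPKM in untreated cells, with a log2 difference of -0.14 and a standard error of 0.13.

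Mlx, the partner of the Mondo proteins (11:101087277-101092207, plus strand), had 21.0, 20.5 and 18.7 FPKM with flavonoids, against 16.8, 16.0 and 13.3 FPKM in untreated cells. The groups did not overlap, and the third library was the lowest of each group. The log2 difference was 0.37 with a standard error of 0.13. Coasy, for coenzyme A synthase, ends 658 bases before Mlx on the same strand and was chosen for mention after its values were seen. It had 24.1, 23.2 and 27.2 FPKM with flavonoids, against 15.1, 14.0 and 14.4 FPKM in untreated cells, a log2 difference of 0.73 (limma, adjusted p = 0.00793; not called without untreated replicate 2). It was the only called gene among 13 tested nearest protein-coding neighbours of the members. Over all genes tested, 4.86% were called higher and 5.13% lower, so nothing is read from this count.

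Counted by the fit over all genes, 2 of the 8 tested members were called higher with flavonoids, Myc and Mnt, where 4.86% of all genes were called higher. One member, Mxi1, was called lower, where 5.13% of all genes were. The groups did not overlap for 5 of the 8 members, against 34.3% of all genes tested. Because the members were picked with this contrast known, nothing is read from these counts. The call for Mnt was lost without any 1 of the flavonoids libraries or without untreated replicate 2, and that for Mxi1 without flavonoids replicate 1 or untreated replicate 2. The call for Myc was kept in each of the 18 other settings. Mxd3, not called in this fit, was called lower with each library's trend over gene length removed and without untreated replicate 3. Mlx was called higher with that trend removed. The median log2 difference was 0.08 over the 8 members and -0.02 over all genes tested.

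Some members share ground with other genes. The exons of Mxd3 overlap those of Prelid1 on the opposite strand, which had 260, 258 and 281 FPKM with flavonoids and 310, 255 and 197 FPKM in untreated cells, and the exons of Mlx overlap Psmc3ip, which had 17.0, 16.4 and 14.9 FPKM with flavonoids and 17.6, 16.4 and 10.3 FPKM in untreated cells. Whether counting used strand is not given in the sources used here, so reads of each gene and its partner cannot be told apart. Exons of Mxd4 and Mxi1 also overlap opposite-strand gene models that have no row of their own in the table.

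The order of the family by level per length differed between the groups. With flavonoids it ran Myc, Max, Mxd4, Mlx, Mnt, Mxi1, Mxd3, Mxd1 and Mycl, and no neighbours in that order had overlapping ranges. In untreated cells it ran Max, Mxd4, Myc, Mxi1, Mlx, Mxd3, Mnt, Mxd1 and Mycl. There the ranges of Max and Mxd4, of Mxi1 and Mlx, of Mxd3 and Mnt, and of Mycl and Mycn overlapped, so these pairs cannot be ranked. Myc was thus the most abundant family transcript in each treated library and the third in each untreated one.

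Summed over the 10 genes, the family had 258, 257 and 259 FPKM with flavonoids and 198, 203 and 204 FPKM in untreated cells. Myc made up 33.0, 31.6 and 29.7% of that sum with flavonoids and 17.1, 15.7 and 15.6% in untreated cells. The antagonists Mxd1, Mxd3, Mxd4, Mxi1 and Mnt together had 78.1, 86.5 and 93.5 FPKM with flavonoids and 83.2, 100.3 and 103 FPKM in untreated cells, which overlap. The ratio of MYC-type to antagonist FPKM was 1.09, 0.937 and 0.820 with flavonoids and 0.408, 0.319 and 0.309 in untreated cells. Its means were 0.949 ± 0.135 with flavonoids and 0.345 ± 0.0545 in untreated cells (SD, n = 3 each). The ratio concerns RNA and not the proteins that compete for MAX.

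**Figure D2:**
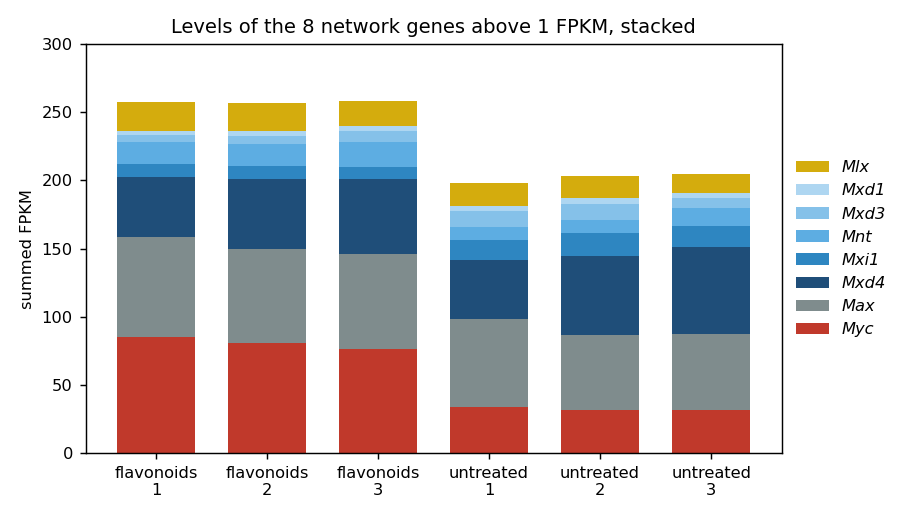
Stacked FPKM of the network genes in each library, flavonoids on the left and untreated on the right. The total is 257 to 259 FPKM with flavonoids and 198 to 204 FPKM in untreated cells, and the Myc segment is 76.7 to 85.1 FPKM with flavonoids and 31.9 to 33.9 FPKM in untreated cells.

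Genes known to be raised by MYC were more often higher than lower in flavonoid-treated cells, in a list chosen with earlier results of these data known. Of 65 listed activated targets, 64 were tested, 23 were called higher and 1 lower (limma, at an adjusted p under 0.05 over all genes by Benjamini and Hochberg). Their median log2 difference was 0.47, with 53 estimates above 0 and 11 below. Over all genes tested the median was -0.02, with 47.4% above 0, 4.86% called higher and 5.13% lower. Rrp12, needed for export and maturation of ribosomal subunits, had 5.71, 5.12 and 6.77 FPKM with flavonoids, against 1.58, 2.02 and 1.66 FPKM in untreated cells, a log2 difference of 1.32 (SE 0.15, adjusted p = 0.00321). Nop2, a methyltransferase of ribosomal RNA whose promoter E-box is shown above, had 31.1, 32.3 and 39.2 FPKM with flavonoids, against 17.0, 15.0 and 14.4 FPKM in untreated cells, a log2 difference of 1.09 (SE 0.13, adjusted p = 0.00377). Ppan, a large-subunit assembly factor, averaged 34.7 ± 3.63 FPKM with flavonoids and 16.8 ± 0.934 FPKM in untreated cells (SD, n = 3 each), with limma's adjusted p = 0.00377. In all 3 genes the groups were far apart, and the calls were kept with each library left out in turn.

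The list also reaches nucleotide, polyamine and iron metabolism, and the next genes were chosen after their values were seen. Srm, which makes spermidine, had 19.9, 21.9 and 23.7 FPKM with flavonoids, against 9.99, 11.0 and 8.05 FPKM in untreated cells (log2 difference 1.10, limma adjusted p = 0.00431). Cad, which starts pyrimidine synthesis, averaged 14.1 ± 2.15 FPKM with flavonoids and 8.76 ± 1.62 FPKM in untreated cells (SD, n = 3 each; limma adjusted p = 0.0423), and Tfrc, the transferrin receptor, 6.64 ± 2.29 FPKM and 2.52 ± 0.378 FPKM (adjusted p = 0.0213). Polr1b, a subunit of RNA polymerase I, averaged 6.91 ± 1.33 FPKM with flavonoids and 4.01 ± 0.408 FPKM in untreated cells (SD, n = 3 each; limma adjusted p = 0.0348). The single activated target called lower was Ldha, the lactate dehydrogenase of glycolysis, which is also driven by hypoxia-inducible factor. It had 473, 477 and 499 FPKM with flavonoids, against 894, 864 and 627 FPKM in untreated cells (log2 difference -0.70, limma adjusted p = 0.0346).

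These counts depended on single libraries more than the estimates did. The number of activated targets called higher was 6, 9 and 15 without flavonoids replicates 1, 2 and 3, and 28, 5 and 23 without untreated replicates 1, 2 and 3, while the list's median stayed between 0.33 and 0.48 over these and all other settings. Of the genes named, Srm kept its call throughout the leave-outs. Cad lost it without any 1 flavonoids library or untreated replicate 1 or 2, Polr1b and Ldha without any 1 flavonoids library or untreated replicate 2, and Tfrc without flavonoids replicate 1 or 2 or untreated replicate 2. The summed level of the list was 4288, 4241 and 4005 FPKM with flavonoids and 4052, 3693 and 3041 FPKM in untreated cells, so the sums overlapped and untreated replicate 3 was the lowest.

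**Figure D3:**
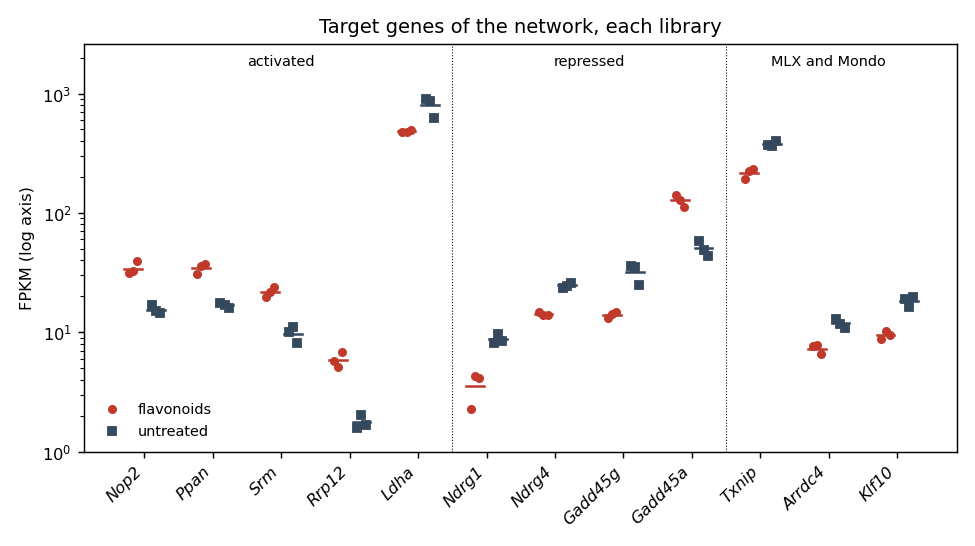
FPKM on a log axis in each library for targets of the network, flavonoids (red circles) left of untreated (blue squares), with lines at the means. Nop2, Rrp12, Ppan and Gadd45a are higher with flavonoids, while Gadd45g, Ndrg4, Txnip and Klf10 are lower.

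Genes known to be repressed by MYC were more often lower. Of 26 listed, 24 were tested, 8 were called lower and 1 higher, with a median log2 difference of -0.39 and 22 estimates below 0. Over all genes tested, 5.13% were called lower and 4.86% higher, and 52.6% of estimates were below 0, with a median of -0.02. Gadd45g, a growth-arrest gene of the stress-response GADD45 family, had 13.3, 14.1 and 14.7 FPKM with flavonoids, against 36.1, 35.0 and 24.6 FPKM in untreated cells (log2 difference -1.11, SE 0.16, limma adjusted p = 0.00588). Ndrg4, of the N-myc downregulated family, had 14.6, 13.9 and 13.9 FPKM with flavonoids, against 23.4, 24.6 and 25.9 FPKM in untreated cells (log2 difference -0.76, SE 0.11, limma adjusted p = 0.00591). Both genes had tight treated values, all below every untreated one. Gadd45a, from the same growth-arrest family as Gadd45g, was the exception, with 141, 129 and 112 FPKM with flavonoids, against 58.6, 49.2 and 43.6 FPKM in untreated cells (log2 difference 1.32, SE 0.14, limma adjusted p = 0.0029). It is also induced by stress-response factors.

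Of the repressed targets chosen after their values were seen, Ndrg1, a relative of Ndrg4 that hypoxia also raises, had 2.28, 4.29 and 4.10 FPKM with flavonoids, against 8.14, 9.75 and 8.48 FPKM in untreated cells (limma adjusted p = 0.0112). Cdkn2b, the cell-cycle inhibitor p15, averaged 39.3 ± 2.09 FPKM with flavonoids and 63.9 ± 9.80 FPKM in untreated cells (SD, n = 3 each; limma adjusted p = 0.0184). Btg2, an antiproliferative gene, averaged 63.5 ± 4.09 FPKM with flavonoids and 91.7 ± 6.96 FPKM in untreated cells (SD, n = 3 each; limma adjusted p = 0.0244). The calls for Ndrg4 and Ndrg1 were lost without untreated replicate 2, and those for Cdkn2b and Btg2 without that library or any 1 flavonoids library. The number called lower was 3, 4 and 4 without flavonoids replicates 1, 2 and 3 and 8, 1 and 13 without untreated replicates 1, 2 and 3, with the median between -0.46 and -0.35 in all settings. The direction of the MYC target lists is not independent of Myc having been picked as a gene that differed.

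Targets of MLX with the Mondo proteins showed 3 genes called lower of 11 tested and none higher (1 higher at an unadjusted p under 0.05, none by voom), with a median of 0.10. Txnip, the thioredoxin-binding brake on glucose uptake, had 191, 224 and 232 FPKM with flavonoids, against 370, 362 and 397 FPKM in untreated cells (log2 difference -0.80, SE 0.13, limma adjusted p = 0.00914). Its relative Arrdc4, whose promoter E-box is shown above, had 7.61, 7.75 and 6.52 FPKM with flavonoids, against 12.8, 11.8 and 10.9 FPKM in untreated cells (log2 difference -0.63, limma adjusted p = 0.018). Klf10, a zinc-finger transcription factor, had 8.71, 10.3 and 9.43 FPKM with flavonoids, against 18.9, 16.4 and 19.7 FPKM in untreated cells (log2 difference -0.88, limma adjusted p = 0.00591). These 3 fell while the median of the list was above 0, so the list's median and its calls differ in sign. Of all genes tested, 5.13% were called lower and 4.86% higher. Klf10 kept its call in every leave-out. Txnip lost it without flavonoids replicate 1 or untreated replicate 2, and Arrdc4 without any 1 flavonoids library or untreated replicate 2. The Mondo genes themselves were not called: Mlxip had 7.17, 6.67 and 8.46 FPKM with flavonoids and 6.11, 10.3 and 13.7 FPKM in untreated cells, and Mlxipl, known as ChREBP, did not exceed 0.0108 FPKM in any library.

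**Figure D4:**
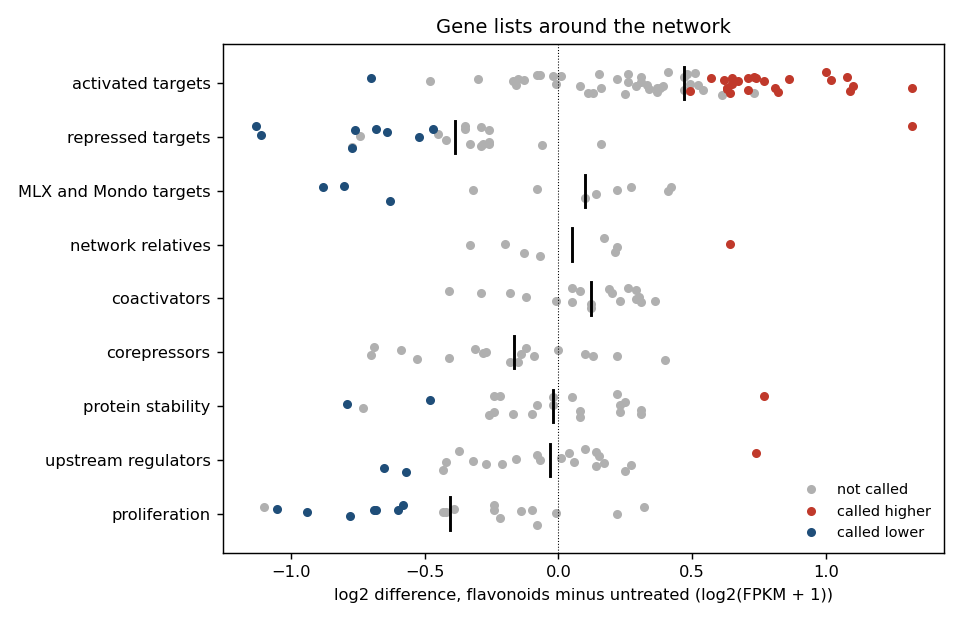
Log2 difference (flavonoids minus untreated, log2(FPKM + 1) scale) of every tested gene in 9 lists around the network, with called genes in red (higher) or blue (lower), others in grey and a black line at each median. The activated targets centre on 0.47 and the repressed targets on -0.39, while the coactivators centre on 0.12 and the corepressors on -0.16, with no gene of either list called in the fit plotted.

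Genes that act with or upon the network are given by group, and over all genes tested 4.86% were called higher and 5.13% lower. Of 8 tested relatives that bind similar E-boxes, 1 was called higher, Bhlhe40, a clock-linked repressor, with 23.9, 26.4 and 24.9 FPKM with flavonoids, against 16.2, 15.7 and 15.5 FPKM in untreated cells (log2 difference 0.64, limma adjusted p = 0.0102). Usf1, the most abundant of them, had 62.9, 62.3 and 68.1 FPKM with flavonoids and 84.2, 74.9 and 63.9 FPKM in untreated cells, with overlapping groups. None of 19 MYC coactivators was called by limma, with 3 higher and 1 lower at an unadjusted p under 0.05 and none called by voom, and their median was 0.12. With each library's trend over gene length removed, 2 coactivators were called higher and 1 lower. None of 18 corepressor genes was called by limma, with 1 higher and 5 lower at an unadjusted p under 0.05 and none called by voom, and their median was -0.16. Other settings did call corepressors lower: 2 with TPM, 2 with quantile normalization, 4 with the length trend removed, and 1 with the replicate number as a block. Without untreated replicate 1 or without untreated replicate 3, 2 were called lower. One was called higher with the length trend removed and without untreated replicate 1. The histone deacetylase Hdac2 had 74.7, 83.4 and 56.0 FPKM with flavonoids and 116, 116 and 89.2 FPKM in untreated cells, without overlap (log2 difference -0.59, limma adjusted p = 0.0681). Hdac2 was called with TPM, with quantile normalization, with the length trend removed, and with the replicate number as a block (limma adjusted p = 0.0483). It was also called without untreated replicate 3, where the log2 difference was -0.71 (limma adjusted p = 0.0221).

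Among 22 genes for MYC protein stability, 1 was called higher and 2 lower, with a median of -0.02. Usp36, which removes ubiquitin from MYC in the nucleolus, had 5.92, 5.07 and 5.77 FPKM with flavonoids, against 2.43, 2.35 and 3.95 FPKM in untreated cells (log2 difference 0.77, limma adjusted p = 0.0288). Pim2, a kinase that stabilizes MYC, had 1.17, 2.09 and 1.56 FPKM with flavonoids, against 3.08, 3.56 and 3.74 FPKM in untreated cells (log2 difference -0.79, limma adjusted p = 0.0217). Aurka, a mitotic kinase that shields MYC-family proteins from degradation, had 15.1, 15.3 and 14.9 FPKM with flavonoids, against 22.1, 23.4 and 19.0 FPKM in untreated cells (log2 difference -0.48, limma adjusted p = 0.0374). Among 22 tested upstream regulators of Myc, 1 was called higher and 2 lower. Foxo1 averaged 3.35 ± 0.282 FPKM with flavonoids and 5.87 ± 1.24 FPKM in untreated cells (SD, n = 3 each; limma adjusted p = 0.0412), and Egr1 348.8 ± 26.1 FPKM and 520.3 ± 65.3 FPKM (adjusted p = 0.0408). Nme2 was at 393 to 415 FPKM with flavonoids and 186 to 308 FPKM in untreated cells, but it is near-identical to Nme1 and its value is uncertain. The calls for Usp36, Aurka, Egr1 and Nme2 were lost without any 1 flavonoids library or untreated replicate 2. That for Foxo1 was lost also without untreated replicate 3, that for the relative Bhlhe40 without flavonoids replicate 1 or 2 or untreated replicate 2, and that for Pim2 without flavonoids replicate 1 or 3 or untreated replicate 2.

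Several genes of dividing cells fell with flavonoids. Of 20 proliferation genes, 7 were called lower and none higher by limma, where 5.13% of all genes were called lower and 4.86% higher. At an unadjusted p under 0.05, 1 was higher, and voom called none higher. The median was -0.41, with 18 estimates below 0. The 2 above 0 were Mcm2 (0.32) and Mcm3 (0.22), while Mcm5 and Mcm6 were at -0.08 and -0.01. The number called lower was 0, 2 and 3 without flavonoids replicates 1, 2 and 3, 8, 0 and 7 without untreated replicates 1, 2 and 3, and 1 with no filter on low values, while the median stayed between -0.47 and -0.33 over all settings. Top2a, the topoisomerase of dividing cells, had 14.8, 16.7 and 10.3 FPKM with flavonoids, against 24.9, 29.4 and 35.1 FPKM in untreated cells (log2 difference -1.05, limma adjusted p = 0.0129). Aurkb, a mitotic kinase, averaged 10.4 ± 0.694 FPKM with flavonoids and 17.2 ± 1.5 FPKM in untreated cells (SD, n = 3 each; limma adjusted p = 0.0122), and Ccnb2, a mitotic cyclin, 13.5 ± 0.814 FPKM and 22.5 ± 3.59 FPKM (adjusted p = 0.0196). The calls for all 3 were lost without flavonoids replicate 1 or untreated replicate 2, for Aurkb and Ccnb2 also without flavonoids replicate 2, and for Ccnb2 also without flavonoids replicate 3. The preadipocyte and fibroblast markers had 4 of 13 tested called lower and 1 higher, with 10 estimates below 0 and 3 above. Lum, a collagen-binding proteoglycan, had 2.68, 2.96 and 1.83 FPKM with flavonoids, against 11.9, 9.58 and 11.0 FPKM in untreated cells. The marker called higher was Pi16 (log2 difference 0.65, limma adjusted p = 0.0318). It had 8.94, 7.88 and 11.1 FPKM with flavonoids, against 5.38, 5.08 and 6.19 FPKM in untreated cells. None of 9 tested adipocyte markers was called by limma, with 2 higher and 0 lower at an unadjusted p under 0.05 and none called by voom. The summed level of the proliferation genes was 768, 824 and 805 FPKM with flavonoids and 920, 945 and 800 FPKM in untreated cells, where untreated replicate 3 lay below 2 treated libraries.

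The genes whose pattern over the 6 libraries was most like that of Myc were found by the root mean square difference of mean-centred log2(FPKM + 1) values. Closest was Acot2, a mitochondrial acyl-CoA thioesterase, at 0.024, with 19.9, 19.3 and 18.6 FPKM with flavonoids and 7.74, 7.17 and 7.39 FPKM in untreated cells. Next came Bid, a cell-death regulator, at 0.094, Tgif1, a homeobox repressor, at 0.103, Slc11a2, an iron transporter, at 0.103, and Wars, tryptophanyl-tRNA synthetase, at 0.109. Slc11a2 had 74.3, 66.8 and 73.9 FPKM with flavonoids and 26.7, 26.7 and 30.3 FPKM in untreated cells. The 5 genes were 2.29-fold to 2.59-fold higher with flavonoids on the scale of means, close to the 2.48-fold of Myc. Genes close to Myc by this measure share its contrast by construction.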

How the data were processed

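RNA of 6 libraries of 3T3-L1 cells was extracted with TRIzol and made into TruSeq libraries, per the labels' protocols. The authors deposited 1 table of FPKM values. The submitters' processing notes name FastQC, HISAT2 and the build mm10. How fragments were counted, on which annotation, and with or without strand is not stated in the labels. Whole fragments were worked back from the FPKM steps for all 22235 genes above 0, whole within 0.005 fragments. They set the depths and a limma voom alternative.

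The 11464 genes averaging 1 FPKM or more entered limma 3.58.1 (R 4.3.3) as log2(FPKM + 1) values, moderated with an intensity trend. A gene was called at a two-sided p under 0.05 after Benjamini-Hochberg adjustment. A fold on the log2(FPKM + 1) scale understates the change of low genes. The script was tested on simulated data. The members, lists and markers were chosen with earlier results of these data known. In each list the 3 called genes of smallest p were named, or, with fewer than 2 called, the 2 of highest mean level. The 5 genes most like Myc were added. Not all are printed. Some printed genes fall outside this rule, and only part of them are marked in the text. Adipoq, Pparg, Pi16, Mlxip, Mlxipl, Mcm2, Mcm3, Mcm5 and Mcm6 are among those without a mark. Alternatives were 2 pseudocounts, 2 filters, TPM, median-ratio scaling, quantile normalization, 2 variance settings, a replicate block, voom, removal of the trend over implied gene length, and leaving out each library. Positions are from GENCODE M21 on GRCm38, the assembly mm10 denotes, and promoters from RefSeq on GRCm38.p6, with an entry for 9 of 10 members. An exact permutation test of 3 libraries against 3 cannot go below 0.1 and was not used. The fragments per tested member ran from 161 to 5157, a counting error of 1.39 to 7.88%. Python 3.11.15, pandas 2.3.3, numpy 2.4.6 and matplotlib 3.10.9 were used.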

Additional observations from a re-analysis of the deposited data

How the results depend on the processing

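With 3 libraries a group, calls moved more than estimates. Genes called higher and lower numbered 557 and 588, and 317 and 324 with no filter on low values, 1286 and 1208 with the length trend removed, and 65 to 876 and 81 to 833 over the leave-outs. Rescaling to TPM gave 441 higher and 599 lower, and no scaling moved the median of all genes by more than 0.1. With the replicate number as a block there were 220 and 237 calls, 13 activated targets higher and 0 lower, 5 repressed targets lower, 1 corepressor lower (Hdac2, adjusted p = 0.0483), and no proliferation, stability or upstream gene called. Same-numbered libraries had correlations of deviations of -0.143, -0.117 and -0.203, and the others ran from -0.0854 to 0.169. Deviations within a group of 3 are not independent of each other, so these values cannot decide whether the numbers pair the libraries.

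Members called higher fell to 1 with no filter and with TPM and rose to 3 with the length trend removed (1 to 2 over the leave-outs). Those called lower were 2 with the length trend removed (0 to 2). Activated targets called higher numbered 11 with no filter and 36 with the length trend removed (5 to 28), and those called lower 0, 3 and, with TPM, 2 (0 to 1). Repressed targets called lower numbered 5 with no filter, 13 with TPM and 15 with the length trend removed (1 to 13), and those called higher stayed at 1. Mondo targets called higher were 2 with the length trend removed (0 to 1), and those called lower ranged from 1 to 3. No stability or upstream gene was called with no filter, 4 upstream genes were called lower without untreated replicate 1, and 9 proliferation genes lower and 1 higher with the length trend removed. The ratio of MYC-type to antagonist FPKM was 1.19 with Mnt left out for flavonoids (0.878 to 1.01 over the leave-outs) and 0.408 from fragments for untreated (0.314 to 0.363). The E-box count of members was 3 in the upstream 250 bases. Of 750 single-gene values over 42 results, 637 kept direction and, outside the members, call. Another 103 lost the call and 5 gained it (all Hdac2). Calls of the members were left out of this comparison, so those gained by Mxd3 and Mlx are not among the 5. Beyond their spread 3 moved (Myc and Mxi1). The last 2 turned: Supt5 was at -0.02 without flavonoids replicate 3 and -0.05 without untreated replicate 1. Its other leave-outs reached up to 0.21. The causes were not tested.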
